A study of Mus musculus with 4 samples.

Results

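The genes described here are 8 genes best known from neurons that were read in stellate and other mesenchymal nuclei of injured mouse liver: Lsamp, Ntm, Ptprt, Tafa1, Neto1, Rbfox1, Reln and Sorcs3. They were picked by symbol from the 32292 features counted, because earlier results of these data had shown them in mesenchymal nuclei, so their levels there are a description and carry no test. Single-nucleus RNA libraries had been made from livers of male mice given the bile duct-injuring DDC diet for 4 weeks, starting at an age of 10 to 11 weeks. In CKO mice Rbpj, through which Notch receptors act on transcription, is knocked out in hepatic progenitors, and the labels used here name neither the Cre driver nor the deleted exons. WT mice ate the same diet, and mice on a normal diet were not analysed here. Each genotype has 2 libraries, and the labels do not say whether they are separate animals, so p-values measure only the spread between libraries.

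Lsamp and Ntm (neurotrimin) belong to the IgLON family, small immunoglobulin-domain proteins tethered to the cell surface that bind each other across cells. Ptprt is a receptor tyrosine phosphatase that mediates adhesion between like cells, Reln (reelin) is a secreted matrix glycoprotein that guides migrating neurons, and Tafa1 is a small secreted protein. Neto1 is an auxiliary subunit of kainate receptors, Sorcs3 a sorting receptor with a VPS10 domain, and Rbfox1 a splicing regulator of neurons and muscle. Hepatic stellate cells, the vitamin A-storing pericytes of the sinusoid and the main source of matrix in fibrosis, are known to carry several neural genes, and reelin is an established product of theirs.

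The deposited tables held 43664 barcodes and 12261329 to 45620141 unique transcript counts (UMIs) per library, with library medians of 1722 to 2267 UMIs per barcode. Of the 39017 barcodes kept after doublet removal, 1379 formed a cluster that raised all 5 of Sntg1, Gpc6, Pde3a, Bmp5 and Pdgfrb over the other barcodes. The 8 genes were left out of the clustering. The mesenchymal nuclei numbered 404 and 90 in CKO replicates 1 and 2, against 683 and 202 in WT replicates 1 and 2, with a median of 2460 UMIs each. Between 38.9% and 62.5% of the kept barcodes of a library met the marker rule of no class. These unnamed barcodes, with a median of 1906 UMIs, are the comparison level below, and whether they hold free RNA or intact nuclei was not tested. Any pair of libraries shared 19 to 114 barcode sequences, and none of these was mesenchymal in both libraries. Leading genes of the cluster also included Robo2, Zfp804b and Pde1a. Of the defining markers of Schwann cells and neurons, Sox10, Cdh19, Elavl3, Elavl4 and Stmn2 had no UMI in these nuclei, which at 3 counts allows up to 0.824 CPM (UMIs of a gene scaled by all UMIs of the nuclei and, unless TMM is named, with no further scaling), and Snap25 had 1 UMI. Others were read at low levels: Rbfox3 had 38 UMIs (10.4 CPM against 1.21 in unnamed barcodes), Syt1 28 UMIs (7.69 against 9.13) and Scn7a 20 UMIs (5.49 against 1.55). Summed over 7 neuronal markers the level was 5.75 and 22.7 CPM in CKO libraries, against 26.6 and 16.3 CPM in WT libraries, and the part of such cells in the values below was not tested. Summed over 8 Schwann and glial markers the level was 30.7 and 11.4 CPM in CKO libraries against 35.6 and 16.3 in WT libraries, most of it Erbb3, which was higher in unnamed barcodes (36.4) than in mesenchymal nuclei (20.6).

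The start regions of Lsamp, Rbfox1, Ptprt and Tafa1 are shown because Lsamp was detected together with Rbfox1 more often, and with Ptprt less often, than the single shares give, and Ptprt with Tafa1 more often. They run from 250 bases before to 50 bases after the start, 5′ to 3′ on the gene's strand (RefSeq, GRCm38.p6), and capitals mark a match to the RBPJ core motif TGGGAA on either strand. For Lsamp and Rbfox1 the first of 2 RefSeq entries is printed.
Lsamp, chr16:39984114-39984413, plus strand: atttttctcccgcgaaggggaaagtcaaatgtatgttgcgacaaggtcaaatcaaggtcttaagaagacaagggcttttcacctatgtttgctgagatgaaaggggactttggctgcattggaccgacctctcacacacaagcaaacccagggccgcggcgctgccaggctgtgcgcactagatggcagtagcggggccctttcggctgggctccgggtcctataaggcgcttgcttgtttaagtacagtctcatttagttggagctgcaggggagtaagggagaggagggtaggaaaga
Rbfox1, chr16:5884543-5884842, plus strand: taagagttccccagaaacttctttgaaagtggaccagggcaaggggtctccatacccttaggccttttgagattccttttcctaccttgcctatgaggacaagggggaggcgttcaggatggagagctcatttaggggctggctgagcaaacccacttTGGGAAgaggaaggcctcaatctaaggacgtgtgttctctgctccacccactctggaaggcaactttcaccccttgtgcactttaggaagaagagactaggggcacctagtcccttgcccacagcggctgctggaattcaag
Ptprt, chr2:162661098-162661397, minus strand: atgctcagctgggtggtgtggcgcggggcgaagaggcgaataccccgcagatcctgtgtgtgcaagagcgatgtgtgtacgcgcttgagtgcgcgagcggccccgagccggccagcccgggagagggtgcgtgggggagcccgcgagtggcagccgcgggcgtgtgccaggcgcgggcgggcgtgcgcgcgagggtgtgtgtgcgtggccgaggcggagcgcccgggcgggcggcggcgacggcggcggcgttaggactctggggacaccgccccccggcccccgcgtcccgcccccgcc
Tafa1, chr6:96112904-96113203, plus strand: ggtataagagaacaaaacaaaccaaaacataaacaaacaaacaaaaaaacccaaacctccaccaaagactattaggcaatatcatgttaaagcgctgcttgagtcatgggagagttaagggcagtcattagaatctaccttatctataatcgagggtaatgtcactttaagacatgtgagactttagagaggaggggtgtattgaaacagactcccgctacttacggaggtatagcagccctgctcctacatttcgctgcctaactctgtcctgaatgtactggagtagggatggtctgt

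The Ptprt window is a CpG-rich start with 46 CG dinucleotides, more than 98.4% of all promoter windows hold, and Reln has 47. Tafa1 has 5, Lsamp 12 and Rbfox1 3 in the windows shown, against a median of 7 over all windows. The RBPJ motif lies in Rbfox1, Reln and the first of 2 Ntm windows and in 25.6% of the 32851 promoter windows of that length. The LIM homeodomain core TAATTA (5.29% of windows, both strands) and the TATA box core TATAAA (13.6%) were found in no window of the 7 members with an entry. A match describes letters only.

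All 8 genes span long stretches of genome. Lsamp (ENSMUSG00000061080, chr16:39984361-42181679, plus strand, GRCm38) covers 2197 kb, Rbfox1 (ENSMUSG00000008658, chr16:5885355-7411526, plus) 1526 kb and Ptprt (ENSMUSG00000053141, chr2:161521990-162661147, minus) 1139 kb. Ntm (ENSMUSG00000059974, chr9:28994750-29963141, minus) covers 968 kb, Sorcs3 (ENSMUSG00000063434, chr19:48206025-48805505, plus) 599 kb, Tafa1 (ENSMUSG00000059187, chr6:96113154-96657198, plus) 544 kb, Reln (ENSMUSG00000042453, chr5:21884454-22344702, minus) 460 kb, and Neto1 (ENSMUSG00000050321, chr18:86394952-86506718, plus) 112 kb. The median annotated gene covers 12.3 kb, 0.725% of genes reach 500 kb, and 6 of the 8 do. Nuclear RNA holds unspliced transcripts, and whether reads in introns were counted is not given in the sources used here, so no level is compared between genes.

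In mesenchymal nuclei each gene stood far above the unnamed barcodes. The levels carry no test. Reln had 1540 CPM in mesenchymal nuclei against 43.1 in unnamed barcodes, Ntm 1375 against 61.8, Rbfox1 340 against 7.83 and Lsamp 205 against 8.81. The low-count genes showed the same step, with Tafa1 at 47.2 against 2.56, Sorcs3 at 33.8 against 1.33, Ptprt at 29.7 against 1.01 and Neto1 at 18.9 against 0.468. These steps ran from 18.5-fold (Tafa1) to 43.5-fold (Rbfox1). Although mesenchymal nuclei were 3.53% of kept barcodes, they held 58.5% of all Reln UMIs, 54.1% of Ntm UMIs, 68.3% of Neto1 UMIs and 35.6% of Tafa1 UMIs.

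Detection followed the same split. A Reln UMI was found in 83.0% of mesenchymal nuclei against 7.99% of unnamed barcodes, whose median depth was 1906 UMIs, and an Ntm UMI in 64.7% against 11.2%. Lsamp was found in 19.9% against 1.70%, Rbfox1 in 19.0% against 1.47%, Tafa1 in 7.03% against 0.496%, Sorcs3 in 6.53% against 0.255%, Ptprt in 4.57% against 0.197% and Neto1 in 3.55% against 0.0915%. After thinning every nucleus to 1000 UMIs the mesenchymal shares were 65.1% for Reln, 50.8% for Ntm, 13.3% for Rbfox1, 11.1% for Lsamp and 1.81% to 3.70% for the other 4. Reln was read in most nuclei of every library, Ntm in 50.5% or more, and the other 6 in a minority. T and NK nuclei, of another lineage and with a median of 2089 UMIs, had a Reln UMI in 6.19% and an Ntm UMI in 11.3%, close to the unnamed barcodes.

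Outside the mesenchymal cluster, Rbfox1 was the exception. The 97 mesothelial nuclei, from the lining of the liver surface, held 282 Rbfox1 UMIs, or 1107 CPM against 340 in mesenchymal nuclei. The mesothelial level was 2660 and 569 CPM in CKO replicates 1 and 2, against 922 and 1150 in WT replicates 1 and 2, and lay above the mesenchymal level in all 4 libraries. A Rbfox1 UMI was found in 12 of 12 and 11 of 22 CKO mesothelial nuclei, against 28 of 46 and 12 of 17 WT mesothelial nuclei. The other 7 genes had 0 to 17 UMIs there, and Ntm (66.7 CPM) and Lsamp (11.8) lay near the unnamed level.

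Smaller sources lay in other clusters. Reln reached 800 CPM in a cluster of 34 endothelial nuclei led by Mmrn1, where 26 nuclei had a UMI. The cluster held 3 nuclei of CKO replicate 1 and none of CKO replicate 2, against 26 and 5 in the WT libraries. Tafa1 stood at 19.3 CPM in a macrophage cluster led by Gm11099, Btbd11 and Ksr2, all 72 UMIs being from WT replicate 1, which supplied 1456 of its 1484 nuclei. It stood at 9.38 in a macrophage cluster led by Meg3, all 47 UMIs being from CKO replicate 1, which supplied 2175 of 2183 nuclei. Lsamp had 72.0 CPM in an endothelial cluster led by Rspo3, Dnm3 and Vwf, with 1 UMI in CKO libraries and 18 in WT replicate 1, in 5 nuclei overall. Sorcs3 stood at 5.81 and 4.98 CPM in 2 hepatocyte clusters. The first drew 930 of its 935 nuclei from CKO replicate 1 and the second 1048 of its 1074 from WT replicate 2.

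**Figure D1:**
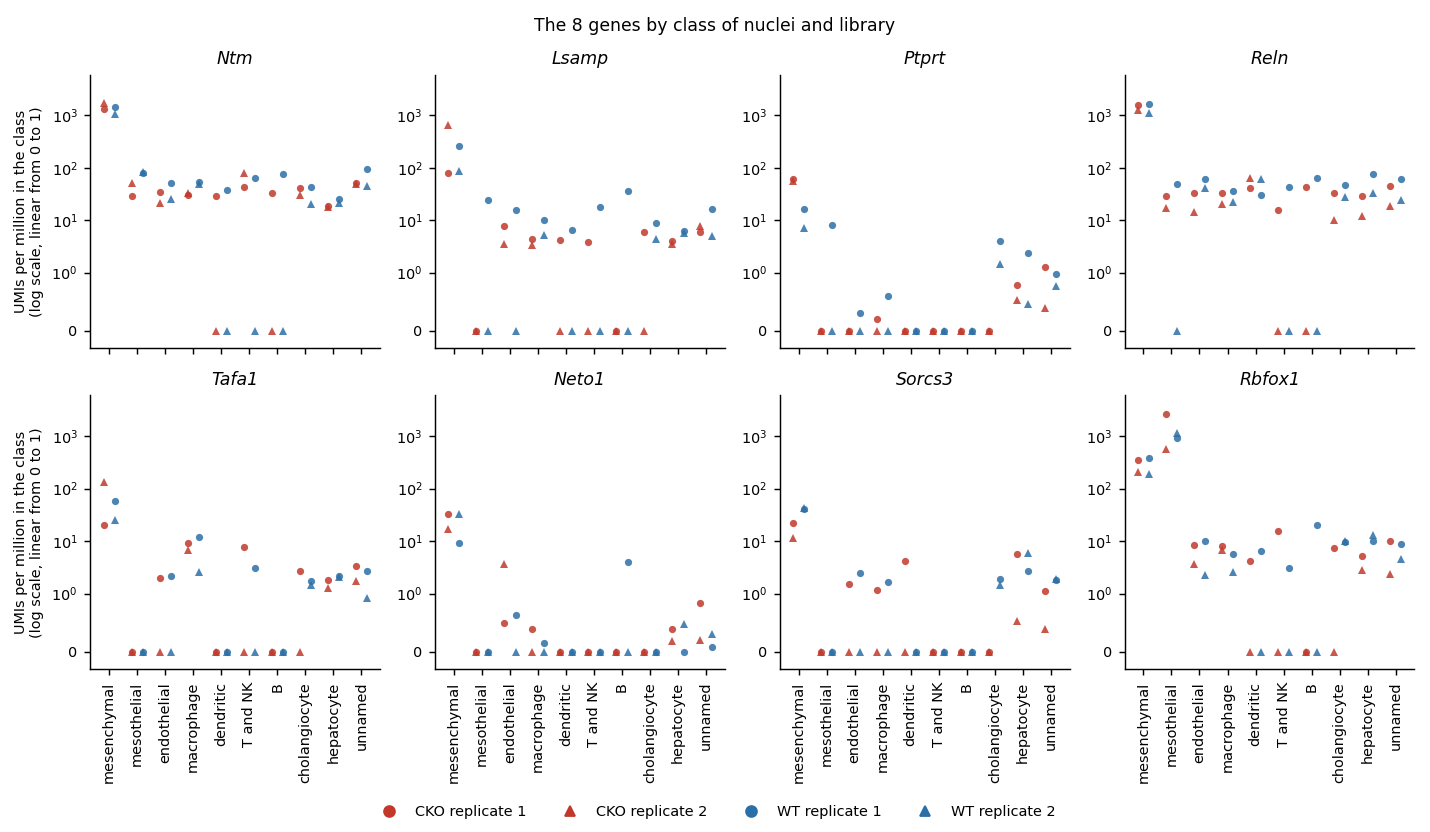
CPM of each gene (vertical axis, log scale above 1 and linear from 0 to 1) in each class of nuclei (horizontal axis), with CKO libraries left of WT libraries within a class and circles and triangles for replicates 1 and 2. Every gene sits highest in mesenchymal nuclei when libraries are pooled, except Rbfox1, which is highest in mesothelial nuclei; points at 0 in small classes rest on few UMIs.

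Within the mesenchymal cluster the levels differed by sub-cluster, and the pooled levels lean on the libraries that gave most nuclei. Sub-clusters were again made without the 8 genes, on values centred per library. Sub-cluster 2 (223 nuclei, led by Colec10, Pde8b and Hhip) raised 10 of 12 quiescent stellate markers. It had the highest Ntm level (3077 CPM) and high Lsamp (533) and Rbfox1 (798). Sub-cluster 5 (127 nuclei, led by Trp53i11 and Pde8b) had pooled levels of 2786 for Ntm, 589 for Lsamp and 873 for Rbfox1, though it raised none of the 12 markers. WT replicate 1 gave 98 of its nuclei and 163 of its 174 Lsamp UMIs. In WT replicate 2 its Lsamp level was 81.5 CPM, against 86.0 over all mesenchymal nuclei of that library and 241 in sub-cluster 2. Rbfox1 in sub-cluster 2 was 771 and 141 CPM in CKO libraries (98 and 2 UMIs) against 886 and 421 in WT libraries. In sub-clusters 2 and 5, nearly every nucleus had an Ntm UMI (100% and 98.4%).

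Sub-cluster 3 (170 nuclei, led by Hs6st3, Lhx2 and Ano1) had the highest pooled levels of Ptprt (86.5 CPM), Tafa1 (109) and Sorcs3 (89.0), with Lsamp at 84.0 and Rbfox1 at 136. The low Lsamp and Rbfox1 levels came from the first replicates. Lsamp was 27.0 and 675 CPM in CKO libraries (library levels 78.6 and 647) against 72.2 and 88.6 in WT libraries (259 and 86.0). Rbfox1 was 155 and 394 CPM in CKO libraries (350 and 210) against 67.1 and 266 in WT libraries (380 and 191), so neither gene was low there in the second replicates. Tafa1 of CKO replicate 2 was higher in sub-clusters 7 (306) and 0 (256) than in 3 (169), on 3 to 8 UMIs each. Reln was as high (2320) as in sub-cluster 2 (2329). The Sorcs3 level of sub-cluster 3 was 60.8 and 0 in CKO libraries against 114 and 111 CPM in WT libraries. Its Ptprt level was 169 and 0 in CKO libraries (25 and 0 UMIs) against 41.3 and 44.3 in WT libraries (8 and 2 UMIs), so the peak was set largely by CKO replicate 1. Lhx2, a LIM homeobox factor of stellate cells, is among its leading genes.

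Nuclei with portal fibroblast markers had Ntm, Lsamp and Ptprt near or below the level of unnamed barcodes. Sub-cluster 6 (159 nuclei, led by Kcnq3, Ltbp2 and Col8a1) raised 5 of 12 portal fibroblast markers and sub-cluster 8 (127 nuclei, led by Ebf1, Csmd3 and C7) raised 3. Ntm stood at 63.9 and 51.5 CPM in them, close to the 61.8 of unnamed barcodes. Lsamp had 4 and 0 UMIs and Ptprt none in either. Of the rest, Reln was at 416 and 428 CPM, lower than in the other 10 sub-clusters, against 43.1 in unnamed barcodes, and Rbfox1 at 50.7 and 64.3 against 7.83. Sorcs3 had no UMI in sub-cluster 6 and 25.7 CPM in sub-cluster 8 (8 UMIs) against 1.33, and Tafa1 8.81 and 6.43 CPM against 2.56, on 4 and 2 UMIs. Neto1 had 0 and 2 UMIs. Sub-cluster 9 (66 nuclei, led by Plcxd3, Wt1 and Gria3, with Itga8) separated the pair of most abundant genes, since Reln stood at 1267 CPM and Ntm at 42.2, below the unnamed level. Its Reln level was 865 and 90.9 in CKO libraries (14 and 1 UMIs) against 1418 and 1183 in WT libraries. The other sub-clusters led by genes of other lineages (4 macrophage, 7 endothelial, 11 cholangiocyte) also held Ntm and Reln.

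**Figure D2:**
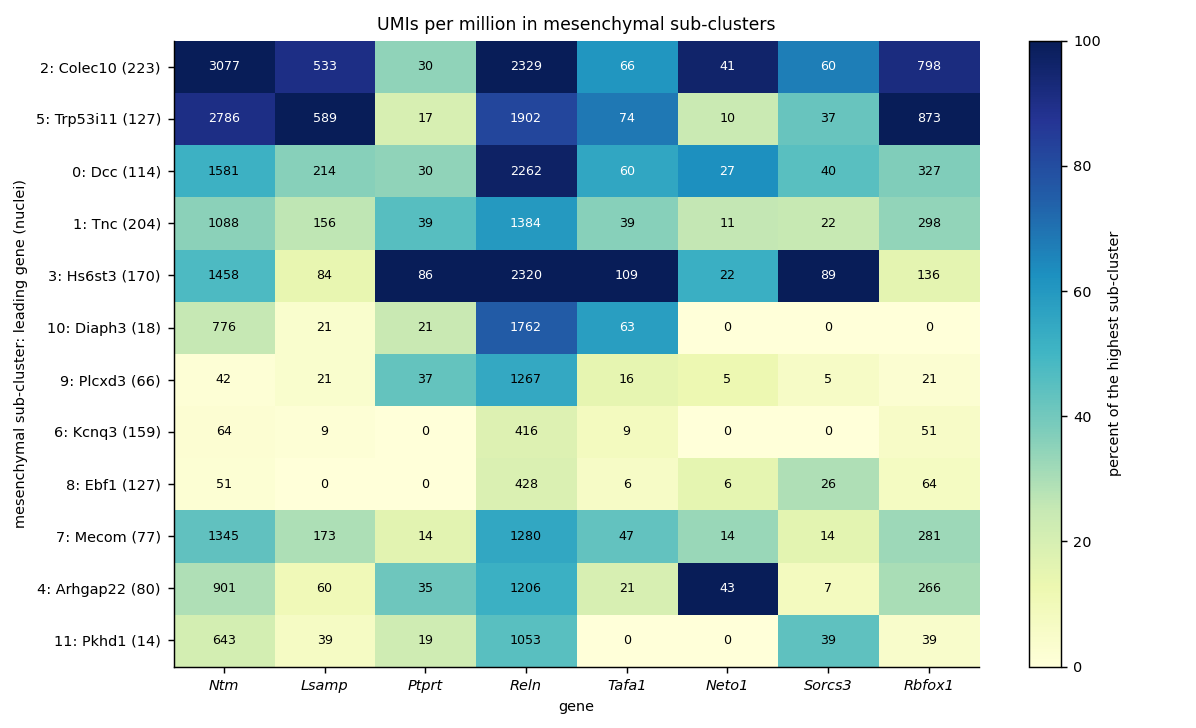
Level of each gene (columns) in the 12 mesenchymal sub-clusters (rows, with the leading gene and the number of nuclei), pooled over libraries; numbers are CPM and shading is the percent of that gene's highest sub-cluster. Pooled, Lsamp and Rbfox1 are highest in sub-clusters 2 and 5 and Ptprt, Tafa1 and Sorcs3 in sub-cluster 3, an order that single libraries do not all share (Lsamp of sub-cluster 5 is 81.5 CPM in WT replicate 2, and CKO replicate 2 has 0 Ptprt UMIs in sub-cluster 3).

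The genes most like each member were taken over 24 sums of a sub-cluster in a library, among 5923 genes, by Pearson's r of log2(CPM + 10). The sums share libraries and depth, and r is a description. Lsamp was most like Ntm (r = 0.86), Zfp804b (0.84) and the microtubule gene Mapt (0.81), and Ntm most like Tmem56 (0.95), the ankyrin gene Ank3 (0.94) and Mapt (0.93). Rbfox1 was most like the integrin Itgb3 (0.82), Arhgef6 (0.82) and Tnfrsf21 (0.82), and Reln most like the Wnt amplifier Rspo3 (0.93), Ank3 (0.91) and the nuclear receptor gene Nr1h5 (0.90). Ptprt was most like the collagen gene Col24a1 (0.73), the hedgehog inhibitor Hhip (0.70) and Glis3 (0.66), Tafa1 like the gluconeogenic enzyme gene Fbp1 (0.79), Nr1h5 (0.68) and Carmn (0.66), and Sorcs3 like Slco2b1 (0.76) and the endothelin receptor gene Ednra (0.76). Between members, r was 0.79 for Lsamp and Rbfox1 but 0.37 for Lsamp and Ptprt and 0.23 for Ptprt and Rbfox1.

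Co-detection was then read in single nuclei, within libraries. The number of nuclei with a UMI of both genes was set against the product of the single shares within each library, summed over libraries. In all 1379 nuclei, 11 of the 15 pairs with an expected count of at least 5 in 2 or more libraries lay above a ratio of 1 in each of those libraries, and 1, Lsamp with Tafa1, lay below it (18 against 23.4). Deeper nuclei detect every gene more often. Nuclei with fibroblast markers had Ntm, Lsamp and Ptprt near or below the unnamed level and less Reln than the other sub-clusters. Both can raise such ratios, and the part of each was not tested. The ratios were therefore also taken in the 922 nuclei outside the fibroblast-marker and mixed sub-clusters, a choice made after the values were seen.

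In those 922 nuclei Lsamp and Rbfox1 were detected together in 99 nuclei against 57.2 expected (ratio 1.73; 2.01 in all mesenchymal nuclei). Of nuclei with Lsamp, 38.9% and 36.4% had Rbfox1 in CKO libraries, against 17.3% and 5.88% of nuclei without Lsamp. The same shares were 42.1% and 46.2% in WT libraries, against 16.9% and 14.8% of nuclei without Lsamp. Lsamp and Ptprt were found together in 2 nuclei against 12.1 expected. The joint count was 0 of 36 and 0 of 33 Lsamp nuclei in CKO libraries, against 2 of 159 and 0 of 13 in WT libraries. In nuclei without Lsamp the Ptprt share was 13.1% and 11.8% in CKO libraries, against 4.97% and 1.85% in WT libraries. Only 1 library had an expected count of at least 5, fewer than the 2 asked above. In WT replicate 2 only 2 of all 202 mesenchymal nuclei had a Ptprt UMI, so its joint count of 0 shows no direction.

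Summed over libraries, Ptprt with Rbfox1 (4 nuclei against 11.8) and Tafa1 with Rbfox1 (8 against 19.3) were also rare, with 1 library each at an expected count of 5. In all mesenchymal nuclei, Ptprt with Rbfox1 was 7 against 7.34 and 1 against 0.944 in CKO libraries, and 0 against 3.64 and 0.287 in WT libraries. Tafa1 with Rbfox1 lay below expectation in the first replicates (CKO 3 against 3.28, WT 6 against 12.3) and above it in the second (3 against 2.46, 2 against 0.861). Ptprt with Tafa1 was found in 9 nuclei against 4.1 expected, Neto1 with Sorcs3 in 8 against 2.9 and Tafa1 with Sorcs3 in 12 against 7.5. An expected count of 5 was reached in 1 library for Tafa1 with Sorcs3 and in 0 for Ptprt with Tafa1 and Neto1 with Sorcs3. Ntm and Reln, the general pair, were found together in 701 nuclei against 687.6 expected, with ratios of 1.006 to 1.048 in the 4 libraries. Both genes were read in most of these nuclei, which leaves such a ratio little room above 1. It therefore does not show whether the 2 genes are independent. Thinned to 1000 UMIs, all mesenchymal nuclei gave ratios of 2.46 for Lsamp with Rbfox1, 0 for Lsamp with Ptprt (2.84 nuclei expected), 0.22 for Ptprt with Rbfox1 (1 nucleus) and 4.73 for Ptprt with Tafa1 (5 nuclei).

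**Figure D3:**
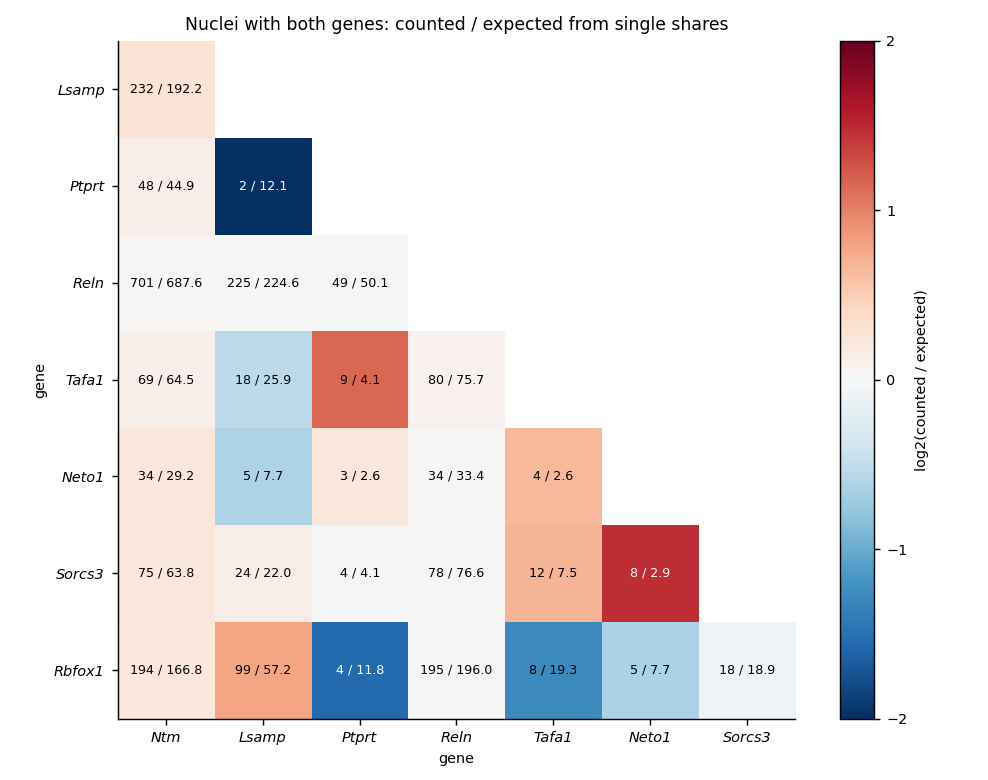
Nuclei with a UMI of both genes of a pair, counted and expected from the single shares within each library, for the 922 mesenchymal nuclei outside fibroblast-marker and mixed sub-clusters; shading is log2 of their ratio. Lsamp with Rbfox1 is above 1 (99 against 57.2) and Lsamp with Ptprt below it (2 against 12.1). Most pairs with Reln or Ntm lie near 1, but genes found in most nuclei leave the ratio little room to rise.

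The comparison of CKO with WT asked whether these genes differ in mesenchymal nuclei when Rbpj is missing from progenitor cells. Among 8675 genes summed per library, no gene (0, or 0%) reached an edgeR adjusted p under 0.05 and DESeq2 called 1. Unadjusted, 632 genes (7.29%) had p under 0.05, 3.76% higher and 3.53% lower in CKO, with Ptprt (higher) and Sorcs3 (lower) the members among them. All 8 members passed the filter on low counts and none was called. In 36.6% of the genes the TMM-scaled CKO and WT libraries did not overlap (17% with both CKO libraries above, 19.5% below). Of the 8 members, 3 were among them. Fewer cells of a type and less RNA per cell cannot be told apart in such sums where the sub-clusters differ.

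Ptprt had 63 and 10 UMIs in CKO replicates 1 and 2, against 32 and 3 in WT replicates 1 and 2. Scaled by TMM, these are 62.3 and 65.9 CPM in CKO, against 14.5 and 7.44 in WT, and both CKO libraries lay above both WT libraries. Its log2 change was 2.28 (SE 0.36, unadjusted p = 0.000113, edgeR adjusted p = 0.347), the gene with the second smallest p of all tested, and 1.96 and 2.83 within replicate numbers 1 and 2. The difference was already visible in earlier results of these data and is no independent support. A Ptprt UMI was found in 9.41% of nuclei (95% Clopper-Pearson interval 6.74 to 12.7%) and 5.56% (1.83 to 12.5%) in CKO libraries, against 2.64% (1.57 to 4.13%) and 0.990% (0.120 to 3.53%) in WT libraries, intervals that cover counting error only. In CKO replicate 2, 6 of the 10 UMIs came from 1 nucleus. Without that nucleus the unscaled level fell to 22.9 CPM there, against 16.1 and 6.98 in the WT libraries with all nuclei kept. In WT replicate 2, 2 of the 3 UMIs also came from 1 nucleus. With the richest nucleus of each library left out, the levels were 54.9 and 22.9 CPM in CKO libraries, against 13.6 and 2.34 in WT libraries. With a library left out, 1 genotype has a single library, whose spread is taken to equal that of the other genotype. The p-values of such fits compare libraries more than genotypes and are not given. Over 13 alternatives, these fits and DESeq2 among them, the log2 change of Ptprt was 1.97 to 3.04. With all libraries kept but no count filter, edgeR called Ptprt, as given in the last section. Its adjusted p, by edgeR or DESeq2 according to the alternative, reached 0.999949.

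Sorcs3 lay the other way, with 23 and 2 UMIs in CKO libraries, against 80 and 18 in WT libraries. These are 22.7 and 13.2 CPM in CKO and 36.2 and 44.6 CPM in WT, with no overlap. The log2 change was -0.88 (SE 0.37, unadjusted p = 0.0424, edgeR adjusted p = 0.656), and -0.62 and -1.61 within the replicate numbers. Ntm was the third member without overlap once scaled by TMM, at 1381 and 1964 CPM in CKO and 1295 and 1113 CPM in WT. Its log2 change was 0.47 (SE 0.35, edgeR adjusted p = 0.844). CKO replicate 1 lay close to WT replicate 1. Without TMM scaling the Ntm levels overlapped, at 1338 and 1692 CPM in CKO libraries against 1438 and 1044 in WT libraries. An Ntm UMI was found in 74.0% and 80.0% of nuclei in CKO libraries, against 61.3% and 50.5% in WT libraries. In sub-clusters 6, 8 and 9 Ntm was at or near the unnamed level. Sub-clusters 6 and 8 were smaller parts of both CKO libraries than of either WT library, while sub-cluster 9 overlapped. None of these was called (edgeR adjusted p = 0.181 each), and their part in the Ntm values was not tested. Sub-cluster 6 made up 9.65% and 1.11% of nuclei in CKO libraries against 13.9% and 11.9% in WT libraries, sub-cluster 8 made up 7.18% and 1.11% against 10.8% and 11.4%, and sub-cluster 9 made up 1.49% and 5.56% against 6.44% and 5.45%. In the 922 nuclei without fibroblast-marker and mixed sub-clusters, Ntm was found in 237 of 273 and 57 of 67 nuclei in CKO libraries, against 359 of 461 and 84 of 121 in WT libraries. These are shares of nuclei with a UMI and do not give the level. Over 14 alternatives, this choice of nuclei and fits with a library left out among them, the log2 change of Ntm was 0.14 to 0.69.

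Lsamp and Tafa1 differed between libraries of the same genotype. Lsamp had 81.1 and 751 CPM in CKO replicates 1 and 2, against 233 and 91.7 CPM in WT replicates 1 and 2, so that CKO replicate 2 and WT replicate 1 were the high libraries. An Lsamp UMI was found in 10.9% and 43.3% of nuclei in CKO libraries, against 25.2% and 9.41% in WT libraries, and no nucleus held more than 9 of the 114 Lsamp UMIs of CKO replicate 2. The order held inside sub-cluster 2, at 205 and 1131 CPM in CKO libraries (the latter 16 UMIs in 7 nuclei) against 656 and 241 in WT libraries. It did not hold in all: WT replicate 1 was below WT replicate 2 in sub-clusters 1 (45.0 against 89.3), 3 (72.2 against 88.6), 4 (56.6 against 109), 9 and 11. There WT replicate 2 had 1 to 4 UMIs each. WT replicate 1 was above it in sub-clusters 0, 5, 6, 7 and 10. Tafa1 had 20.8 and 158 CPM in CKO libraries, against 52.4 and 27.3 in WT libraries, the same order as Lsamp over all mesenchymal nuclei. The log2 change of Lsamp was 1.16 (SE 0.81, edgeR adjusted p = 0.835) but -1.50 and 3.01 within the replicate numbers, and that of Tafa1 0.26 (SE 0.75, 0.989), with -1.25 and 2.45. Without CKO replicate 1 the Lsamp change was 2.11 and without CKO replicate 2 it was -1.11, and those of Tafa1 were 1.78 and -1.12, each from a single CKO library.

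Neto1 had 34 and 3 UMIs in CKO libraries, against 18 and 14 in WT libraries, or 33.6 and 19.8 CPM in CKO and 8.13 and 34.7 CPM in WT, with WT replicate 1 the low library. Its log2 change was 1.09 (SE 0.64, edgeR adjusted p = 0.794), and 1.80 and -0.75 within the replicate numbers. Reln and Rbfox1 had the smallest changes, and both turned sign (-0.18 each) without fibroblast-marker and mixed sub-clusters, Rbfox1 also in nuclei chosen by 3 of 5 markers (-0.092). Reln had 1595 and 1450 CPM in CKO libraries, against 1490 and 1188 in WT libraries (log2 change 0.19, SE 0.33), and Rbfox1 361 and 244 CPM in CKO libraries, against 342 and 203 in WT libraries (0.16, SE 0.34). In both genes the first replicate of each genotype was the higher one.

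**Figure D4:**
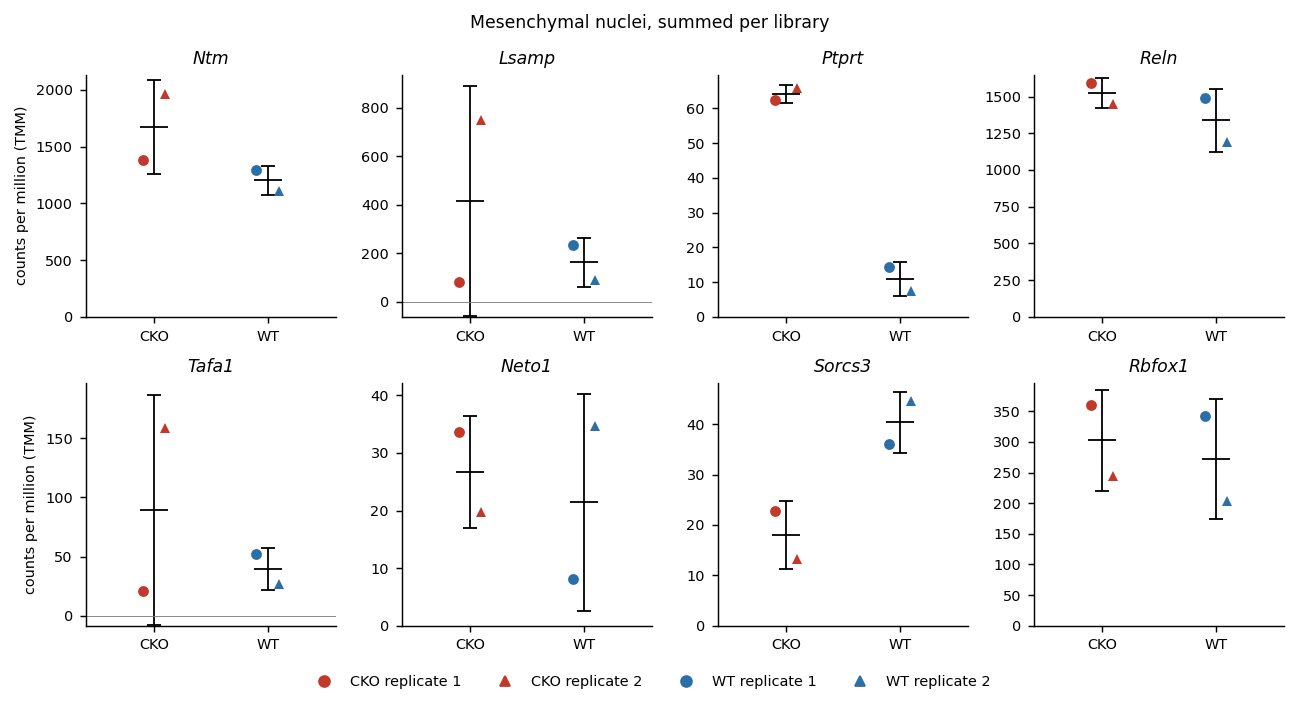
TMM-scaled CPM (vertical axes, differing between panels) of each gene in mesenchymal nuclei summed per library, CKO left and WT right, with the mean and SD of 2 libraries as bars and circles and triangles for replicates 1 and 2. Ptprt is higher in both CKO libraries (62.3 and 65.9 against 14.5 and 7.44), Sorcs3 is lower, and Lsamp and Tafa1 are high in CKO replicate 2 and WT replicate 1.

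The mix of sub-clusters moved with genotype and was compared as a share of mesenchymal nuclei. Sub-cluster 5 made up 1.98% and 1.11% in CKO libraries (8 and 1 nuclei) against 14.3% and 9.90% in WT libraries (log2 change -2.78, SE 0.68, edgeR adjusted p = 0.00493 over 12 sub-clusters). Sub-cluster 1 (led by Tnc, with Il11) made up 23.0% and 31.1% in CKO libraries, against 9.37% and 9.41% in WT libraries (1.48, SE 0.50, 0.0397). With a library left out the changes were -3.49 to -2.47 for sub-cluster 5 and 1.29 to 1.73 for sub-cluster 1, and neither call held (smallest edgeR adjusted p 0.0670), in fits with 1 library in a genotype. Sub-cluster 3, with the highest pooled Ptprt level, made up 15.8% and 11.1% in CKO libraries, against 10.7% and 11.4% in WT libraries (0.37, SE 0.51, 0.476). Sizes follow the leading genes, and a genotype difference in those genes cannot be told apart from one in nuclei. In the 922 nuclei without fibroblast-marker and mixed sub-clusters, the Ptprt change was 1.97 (edgeR adjusted p = 0.505).

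Related genes, from lists chosen with earlier results known, gave no call. A gene could pass the count filter through 1 genotype alone. The signs and medians of these lists therefore follow the filter in part and are a description only. Of the IgLON family, 3 of 5 genes were tested, 2 positive and 1 negative (median log2 change 0.47, against 0.01 over all genes). Opcml, the third, had 3.95 and 6.59 CPM in CKO libraries, against 40.7 and 14.9 in WT libraries (-2.89, SE 0.68, edgeR adjusted p = 0.365). Its sign was opposite to the fitted signs of Ntm and Lsamp, though Lsamp turned sign between replicate numbers (-1.50 and 3.01). Of the R2B phosphatases, to which Ptprt belongs, 3 of 4 were tested and all were positive (median 0.16), but Ptprm (0.16) and Ptprk (0.12) lay near 0. Tafa2, a relative of Tafa1, had 0.65 (SE 0.34, 0.761). Of the sortilin family 3 of 5 were tested and all were negative (median -0.88), Sorl1 at -0.89 (SE 0.58, 0.825).

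Of 24 other neural adhesion genes, 7 passed the filter and were tested, 6 were negative and none was called (median -1.40). Some, such as Csmd1, had few counts in CKO libraries and passed through the WT libraries, so the tally says little about the list. Csmd1, a large complement-control-domain membrane protein, had 1.98 and 6.59 CPM in CKO libraries, against 28.0 and 27.3 in WT libraries (-3.34, SE 0.65, edgeR adjusted p = 0.352), and the adhesion molecule Ncam1 48.4 and 52.7, against 109 and 171 (-1.45, SE 0.32, 0.355). The kainate receptor list with Neto1 gave 4 of 7 tested, with 2 positive, and Grik4 at 0.31 (SE 0.29, 0.908). Of 9 reelin pathway genes 6 were tested, 3 positive (median -0.10). The reelin receptors Vldlr and Lrp8 had 3 and 6 UMIs in all mesenchymal nuclei and the adaptor Dab1 31, too few to be tested, while Dab2ip was at -0.42 (SE 0.30, 0.835). Nrxn2 (-0.40, SE 0.53, 0.947) had the smallest p of the 4 tested neurexins and neuroligins, ahead of Nlgn2 (-0.28, SE 0.42, 0.959). Rbfox2 stood at -0.18 (SE 0.27, 0.955).

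Stellate state markers were read beside these. Quiescent stellate genes had 8 of 12 positive (median 0.19), Hhip at 1.10 (SE 0.49, edgeR adjusted p = 0.686) and Rgs5 at 0.58 (SE 0.30, 0.752). Activation and matrix genes had 6 of 7 tested negative (median -0.78), Col1a2 at -0.85 (SE 0.27, 0.572) and Tagln at -1.40 (SE 0.52, 0.623). Of 12 portal fibroblast markers only 3 passed the filter, all negative (median -0.95), Fbln1 at -2.57 (SE 0.75, 0.514). These signs also follow the filter in part. None passed over all genes. The part of the fibroblast nuclei in the values of the 8 genes was not tested. Genes of at least 500 kb, 136 tested, had a median of -0.16 and 49 positive.

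Sums over all kept barcodes tell less about these nuclei, since mesenchymal nuclei held 35.6% (Tafa1) to 68.3% (Neto1) of a gene's UMIs. No gene of 16794 (0, or 0%) was called by edgeR, DESeq2 called 1, and 245 (1.46%) passed 0.05 unadjusted. Sorcs3 alone of the members did not overlap, at 2.52 and 0.711 CPM in CKO libraries, against 3.02 and 4.60 in WT libraries (log2 change -1.18, SE 0.74, edgeR adjusted p = 0.9999), where 24.7% of all genes did not overlap. Ptprt had 2.79 and 1.52 CPM in CKO, against 1.80 and 0.904 in WT (0.66, SE 0.64). Raw UMIs over all barcodes of a library, doublets included, were 101 and 16 for Ptprt in CKO libraries, against 104 and 13 in WT libraries, of which mesenchymal nuclei held 62.4% and 62.5% in CKO libraries, against 30.8% and 23.1% in WT libraries.

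Other classes with at least 20 nuclei per library gave no call among the members. edgeR called 0% of genes in cholangiocyte, endothelial, hepatocyte and macrophage nuclei, while 5.37%, 5.12%, 1.7% and 5.27% had an unadjusted p under 0.05, in that order, and 3, 3, 6 and 5 members passed the filter. In hepatocyte nuclei Rbfox1 had 4.99 and 3.13 CPM in CKO libraries, against 9.33 and 13.6 in WT libraries (log2 change -1.48, SE 0.43, edgeR adjusted p = 0.9999), and Reln 28.2 and 13.3, against 69.2 and 33.7 (-1.32, SE 0.52, 0.9999). Unnamed barcodes held 7.83 CPM of Rbfox1 and 43.1 CPM of Reln, and the part of RNA from other cells in the hepatocyte values was not tested.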

How the data were processed

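Nuclei in 4 liver libraries had been sequenced with the 10x Chromium 3′ chemistry, and the deposited files hold raw UMI counts per gene and barcode, made by the authors with Cell Ranger 5.0.1 on mm10, per the submitters' processing notes. Whether introns were counted is not given in the sources used here. Barcodes with the highest Scrublet scores were removed as doublets (0.8% per 1000 barcodes, 4647 of 43664). The rest were clustered with scanpy 1.11.5 (2000 variable genes without the 8 members, 30 components, 15 neighbours, Leiden resolution 1). Clusters were named where at least 3 class markers were raised 3-fold over the rest or, for deep clusters, 1.5-fold over the lowest-UMI barcodes. That rule replaced an earlier one after the data were seen. The members and all gene lists were chosen with earlier results of these data known.

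Counts were summed per library and class and tested with edgeR 4.0.16 (quasi-likelihood, TMM, filterByExpr, Benjamini-Hochberg), 2 CKO against 2 WT libraries, with DESeq2 1.42.0 as an alternative. The pipeline was tested on simulated data. An exact permutation test of 2 against 2 cannot go below p = 0.333 and was not used. Named genes were the 8 members, genes of each list past the threshold or else the 2 with the smallest p, and the 3 genes most like each member with at least 100 UMIs. Spans came from the reference annotation of GRCm38 and promoters from RefSeq (7 members matched). Co-detection used nuclei as deposited and thinned to 1000 UMIs. Replicate numbers were checked as pairs: deviations of same-numbered libraries correlated at 0.084 in mesenchymal sums and 0.489 in whole-library sums, over 2 pairs. Both first replicates held 16000 barcodes, against 5184 (CKO) and 6480 (WT) in the second replicates. The labels do not say that the numbers pair libraries, so the main fits do not pair them. Whether same-numbered libraries share a batch was not tested, and fits with replicate number as a block are given below. A minimum of 1000 UMIs removed 0 barcodes and was not run separately. Analyses used Python 3.11.15 and R 4.3.3. Some genes that these rules name are not reported here.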

Additional observations from a re-analysis of the deposited data

How the results depend on the processing

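Over 108 alternative values of the members in mesenchymal nuclei, 92 kept direction and side of the threshold, 6 passed it and 10 changed sign. Ptprt, Ntm and Sorcs3 kept their sign throughout. With a library left out, the lone library of a genotype is assumed to vary like the other genotype. Called genes there numbered 27 to 342 with a library left out, 142 without the count filter and 1 with DESeq2. Ptprt was 2.12 to 3.04 with a library left out and 2.27 without the filter (edgeR adjusted p = 1.82e-05). Leaving out a library gave -1.11 to 2.11 for Lsamp, -1.12 to 1.78 for Tafa1, -0.23 to 1.85 for Neto1 and -0.21 to 0.59 for Rbfox1. Nuclei chosen by 3 of 5 markers gave -0.089 for Tafa1 and -0.092 for Rbfox1. Without fibroblast-marker and mixed sub-clusters, an alternative chosen after seeing the data, Tafa1 was -0.28, Rbfox1 -0.18 and Reln -0.18. In whole-library sums, 0 to 2 genes were called with a library left out and 1 with DESeq2, and the changes were -0.75 to 0.62 (Lsamp), -0.35 to 0.035 (Ntm), -0.22 to 0.86 (Tafa1), -0.54 to 1.39 (Neto1), -1.04 to 0.14 (Rbfox1) and -1.17 to 0.023 (Reln). With a library left out, calls numbered 2 to 180 in cholangiocyte, 0 to 400 in endothelial, 0 to 496 in hepatocyte and 0 to 472 in macrophage nuclei. The changes that turned there were Ntm in cholangiocyte (-0.061 to 0.89) and endothelial nuclei (-0.63 to 0.24), Rbfox1 in endothelial (-0.16 to 0.17), Sorcs3 in hepatocyte (-2.73 to 0.50), and Reln (-0.34 to 0.36) and Tafa1 (-0.16 to 0.12) in macrophage nuclei. With replicate number as a block, mesenchymal nuclei gave 0 calls and Ptprt 2.30 (edgeR adjusted p = 0.111), cholangiocyte nuclei 6 calls and endothelial nuclei 80. The 2 called sub-clusters became 0 with any library left out. Lsamp with Rbfox1 was 2.46 after thinning and 1.73 without fibroblast-marker and mixed sub-clusters. Thinned shares were 50.8% for Ntm, 13.3% for Rbfox1, 65.1% for Reln and 2.90% for Sorcs3. With sums thinned to the smallest library, Ptprt, Tafa1, Neto1 and Sorcs3 gave no mesenchymal value. The causes of these changes were not tested. With 3 to 63 Ptprt UMIs and 2 libraries a genotype, depth limits every low-count member.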
